A study of Mus musculus with 18 samples.

Results

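Desmosomes, claudins and cadherins join neighbouring epithelial cells to each other, and their genes were followed here through the developing mouse palate. The set comprised 59 genes of the 18193 tested: the numbered claudins (Cldn), desmogleins (Dsg), desmocollins (Dsc), plakophilins (Pkp) and cadherins (Cdh) by gene symbol, together with Dsp, Jup, Perp, Epcam, Ocln, F11r and Tjp1. Cdh5, Cdh15 and Cdh19, which mark endothelium, muscle and glia, were left out, and each gene was read from its brightest probe set over all arrays. Dsg3 and Dsg4 were not analysed here. The rule used gene names and brightness, not the differences between groups, but it was set with earlier results of these data known.

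Palate tissue of C57BL/6J mice at embryonic day 15.5 was profiled on 18 Affymetrix arrays in 3 groups of 6. The groups were anterior palate of Tgfbr2 fl/fl controls, posterior palate of Tgfbr2 fl/fl controls, and posterior palate of mutants with the genotype Tgfbr2 fl/fl;K14-Cre, so all animals carried the floxed receptor allele and only the mutants carried the recombinase. K14-Cre acts through a keratin promoter of basal epithelium, so the deletion of this TGF-beta receptor is confined by design to epithelial cells, while the RNA came from the whole tissue with its mesenchyme, muscle and vessels. No mutant anterior palate was measured here, controls without a floxed allele and Cre-only animals were not among the groups, and mutants and controls came from separate litters, so litter and genotype cannot be told apart. The design text counts 5 samples in each group and the labels count 6, and nothing ties an array to an animal, so the p-values reflect variation among these samples alone.

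As background, desmosomes are built from desmogleins and desmocollins, which bridge the gap between cells, and from plakoglobin (Jup), plakophilins and desmoplakin (Dsp), which anchor them to keratin filaments inside the cell. Adherens junctions use classical cadherins tied to actin through catenins, and tight junctions use claudins and occludin (Ocln) on scaffolds such as ZO-1 (Tjp1) to seal the space between cells. In the palate, the epithelia of the facing shelves adhere, form a midline seam and then disappear as the shelves fuse. Loss of Cdh1 is a textbook feature of epithelial cells that take on mesenchymal traits, and TGF-beta signalling is a known inducer of that change.

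Levels are deposited log2 values, on which a step of 1 is a factor of 2. Array medians lay between 5.739 and 5.904. Of the 59 members, 38 averaged at least 6 over the arrays and stood above every array median, and the other 21 averaged under 6, where a value may be background. Differences were tested with limma over all 18193 genes in a single fit of the 3 groups, and a gene was called at an adjusted p (Benjamini-Hochberg over all genes) under 0.05. The genotype comparison is mutant minus control posterior palate, and the region comparison is control posterior minus control anterior palate, so both use the same 6 control posterior arrays.

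Both genes fixed as checks of epithelial content read well above the array medians in controls. Cdh1, E-cadherin of the adherens junction, ranged from 11.524 to 12.219 over the 12 control arrays. Epcam, an adhesion protein of epithelial cells, ranged from 11.724 to 12.543 over the same arrays.

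Mutant array 1 stood apart from every other array for these genes. It was the lowest of the 18 arrays for 28 of the 59 members (47.5%), against 17.1% of all genes, and no other array was lowest for more than 4 members. Among the 38 members that averaged at least 6 it was lowest for 27 (71.1%), and their median difference from the median of the other mutant arrays was -1.33, with a range from -3.47 to 0.22, beside 0.03 for all genes. Dsp, Jup, Perp and all 4 plakophilins were lowest in that array, as were 9 of the 14 brighter claudins. Cdh11, Cdh2, Cdh4, Cldn1, Cldn11, Cldn12, Cldn22, Cldn5, Dsg1a, Cdh13 and Tjp1 were the 11 brighter members for which it was not lowest. The same array had the lowest mean of the 8 basal epithelium markers, 9.207 against 10.461 to 11.37 in the other mutants. It had the highest mean of the 8 skeletal muscle markers, 11.673 against 8.82 to 11.115. Among the mutants it was also highest for red cell markers (7.293 against 5.671 to 6.337) and leukocyte markers (9.133 against 8.472 to 8.881). It was lowest for palate mesenchyme markers (9.985 against 10.023 to 11.277). Its stratified epithelium mean, 8.426, lay above the control posterior arrays, at 7.409 to 8.175. In bulk tissue, fewer cells of a type and less RNA per cell cannot be told apart. The part of these markers in the results was not tested. Genotype differences that moved by more than 1.5 times without this array are given with and without it for the members named by rule.

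**Figure D1:**
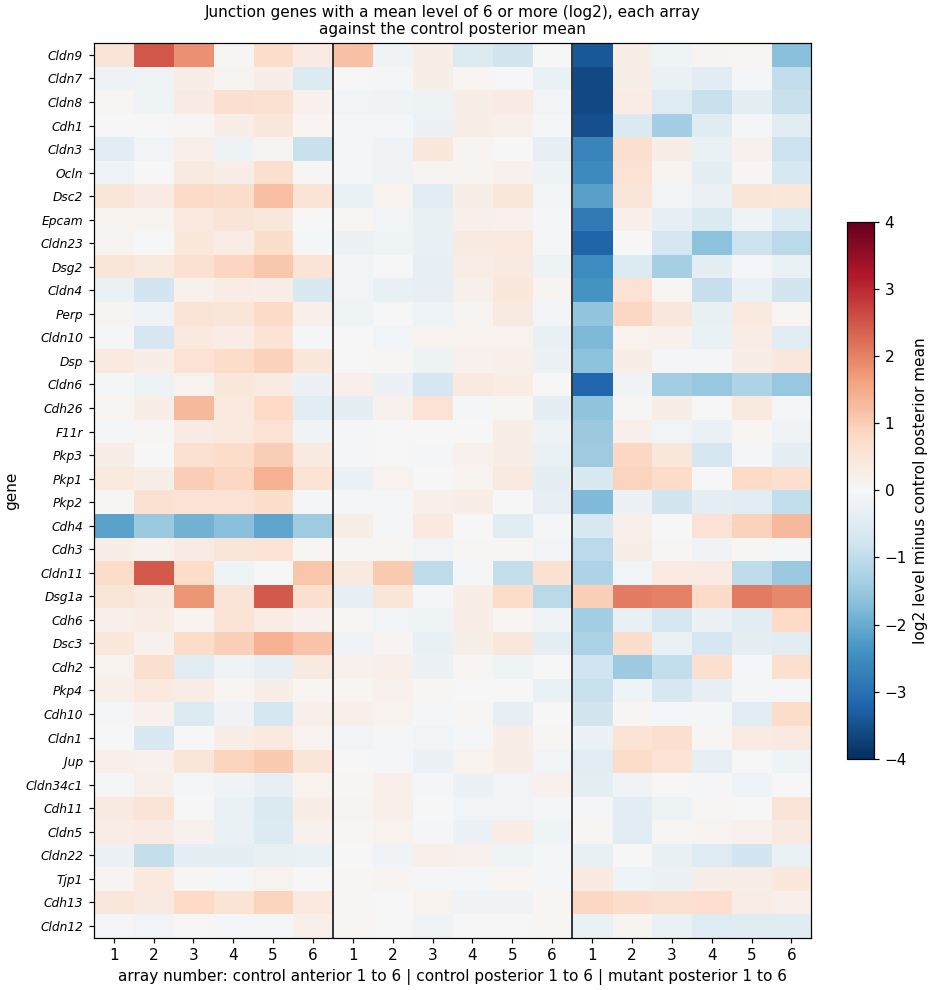
Heat map of the 38 members that averaged at least 6, with genes in rows, the 18 arrays in columns and colour for the log2 level minus the control posterior mean. Rows are ordered by mutant array 1 minus the median of the other mutants; that column holds the lowest value in 27 of the 38 rows, and Dsg1a, Cdh13 and Tjp1 are among the rows where it is not.

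Arrays numbered 1 to 3 and 4 to 6 also differed in spike-in controls, which do not come from the tissue. Hybridisation spike-ins in mutant arrays averaged 11.383 to 11.911 for numbers 1 to 3 and 10.669 to 10.783 for numbers 4 to 6, whereas the control anterior averages were lower for numbers 1 to 3 (10.543 to 10.626) than for 4 to 6 (10.939 to 11.134). Labelling spike-ins did not exceed 8.842 in any mutant array and were at least 9.323 in every control array. The labels give no batch for these sets, and their part in the results was not tested except through the fits quoted with each comparison.

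Loss of epithelial Tgfbr2 was compared first. In mutant posterior palate, Dsg1a, Cdh13 and Cldn2 rose, and Cldn6, Cldn23, Pkp2, Cldn12 and Cldn18 fell. That was 8 of 59 members, 13.6%, beside 13.5% of all genes called in this comparison, so the count is near the background and is not a result about the members. By direction, 7.73% of all genes were called higher and 5.73% lower. When each array was centred on its median, the calls over all genes shifted from 1407 higher and 1042 lower to 892 higher and 1418 lower, and those of the members from 3 higher and 5 lower to 2 and 6. The median difference of the 59 members was -0.10, beside 0.04 for all genes, and 35 members had a negative difference. Leaving out mutant array 1 gave medians of -0.02 and 0.04. Groups did not overlap for 2 members, Dsg1a and Cdh13, a share to be read against 6.55% of all genes. Without mutant array 1, 7 of 59 members were called (11.9%), beside 2097 of all 18193 genes, so this count too is near the background. Of these 7, 6 were among the original 8. Cldn2 (adjusted p = 0.0781, limma) and Cldn18 (adjusted p = 0.0652, limma) dropped out and Cdh1 came in. With the 4 sets of arrays as a random block no member was called at an adjusted p under 0.05 (limma), while 10 had an unadjusted p under 0.05, and 3.23% of all genes were called. Each mutant set lay apart from both control sets in the spike-ins, so a genotype value within a shared set cannot be had. Against control arrays 1 to 3 alone, Dsg1a, Cdh13 and Cldn6 differed by 1.61, 0.49 and -1.27, and against control arrays 4 to 6 alone by 1.65, 0.62 and -1.73.

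**Figure D2:**
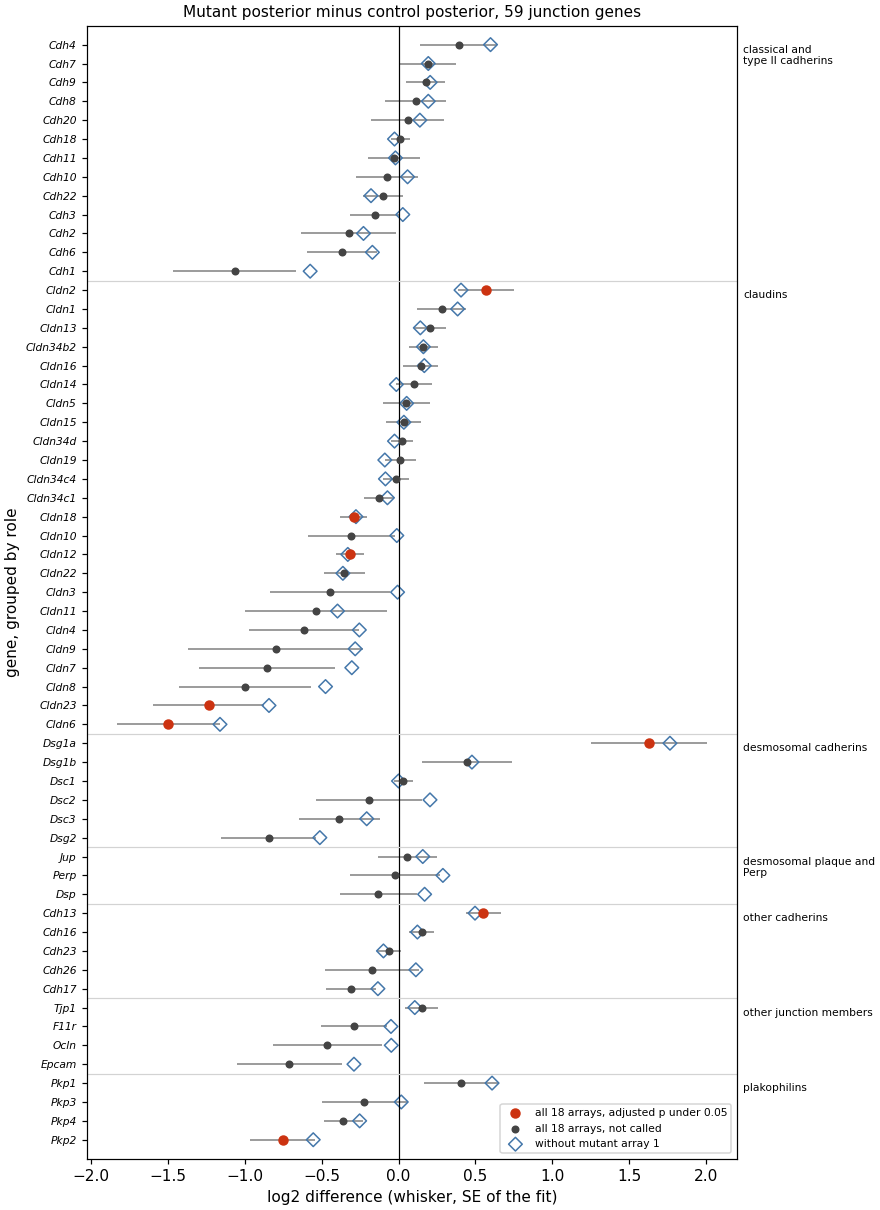
Log2 difference of mutant posterior minus control posterior palate for each of the 59 members, grouped by role, with bars of 1 standard error from the limma fit (n = 6 arrays a group); red marks the 8 called members and diamonds give the value without mutant array 1. Dsg1a at 1.63 and Cldn6 at -1.50 are the largest called differences, and diamonds of most brighter members lie nearer to 0 than their points.

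Among the 6 desmosomal cadherins, Dsg1a was the only one called for genotype. Dsg1a encodes a desmoglein 1, which in skin belongs to the upper, differentiating layers. Its lowest, median and highest levels were 4.417, 5.588 and 6.208 in control posterior palate and 6.244, 7.459 and 7.571 in mutant posterior palate. Every mutant array was above every control posterior array, although the lowest mutant exceeded the highest control by little. The difference was 1.63 (SE 0.378), or 3.10-fold higher (adjusted p = 0.00923, limma), and it was 1.77 without mutant array 1 (adjusted p = 0.00814, limma). The control anterior arrays, at 5.854 to 7.929, overlapped the mutants. With the 4 sets as a random block its adjusted p was 0.107 (limma). Dsg1a and Dsg1b are near-identical copies, so their probe sets may share signal and the assignment to either copy is uncertain. Dsg1b read lower, from 3.518 to 4.970 in control posterior and from 4.205 to 5.207 in mutant palate, and its difference of 0.45 was not called (adjusted p = 0.344, limma).

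Some markers of stratified epithelium rose as Dsg1a did. Of the 10 on the list, 6 rose for genotype, namely Krt1, Krt13, Krt4, Krt6b, Sprr1a and Sprr3, keratins and cornified envelope precursors of squamous layers. Krt6a was not called and differed by 0.73 (adjusted p = 0.15, limma). Lor, Ivl and Krt10, also of differentiating layers, were not called either and differed by 0.09, -0.08 and -0.18. The median difference of the list was 1.48, and its mean level ranged from 7.409 to 8.175 in control posterior and from 8.421 to 10.117 in mutant arrays. None of the 8 basal epithelium markers and none of the 12 simple and general epithelium markers was called by limma (1 and 2 had an unadjusted p under 0.05), with medians of -0.12 and -0.45. The part of these markers in the Dsg1a difference was not tested.

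The other desmosomal cadherins were not called for genotype. Dsg2, the desmoglein of simple and basal epithelia, ranged from 9.988 to 10.659 (median 10.257) in control posterior and from 7.794 to 10.247 (median 9.850) in mutant palate. Of the mutants, 4 lay below the lowest control posterior array. The difference was -0.85 (SE 0.307, adjusted p = 0.0766, limma) and -0.51 without mutant array 1 (adjusted p = 0.0947, limma). Dsc2, a desmocollin of many epithelia, differed by -0.19 (adjusted p = 0.757, limma) with all arrays and by 0.20 without mutant array 1. Dsc3, the desmocollin of basal stratified layers, differed by -0.39 (-0.21 without mutant array 1), with 4 of 6 mutants below the lowest control posterior array. Dsc1 averaged 3.593 over the arrays, under every array median.

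The plaque genes Dsp and Jup, and Perp, gave no call for genotype, and none had an unadjusted p under 0.05 (limma). Desmoplakin (Dsp) read 10.546 in mutant array 1 and between 12.137 and 12.619 in the other mutants, while control posterior arrays lay between 11.959 and 12.373. Its difference of -0.13 (adjusted p = 0.778, limma) became 0.17 without that array. Plakoglobin (Jup) differed by 0.06, a value that turned to -0.001 with median centring and was 0.16 without mutant array 1. Perp, a p53 and p63 target required for desmosome assembly, differed by -0.02 (adjusted p = 0.968, limma) and by 0.29 without mutant array 1.

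Among the plakophilins, Pkp2 fell. Plakophilin 2 is the member found in simple epithelia, heart and basal layers, and its levels were 7.401, 7.694 and 7.991 (lowest, median, highest) in control posterior and 5.974, 7.140 and 7.501 in mutant palate. Of the mutants, 5 were below the lowest control posterior array and 1 lay within the control range. The difference was -0.76 (SE 0.212), 1.69-fold lower (adjusted p = 0.0253, limma), and -0.56 without mutant array 1 (adjusted p = 0.0335, limma). The call was lost without control posterior array 4 or 5, at adjusted p from 0.0517 to 0.0618 (limma), and with the 4 sets as a random block (adjusted p = 0.181, limma). When all probe sets were tested (10.7% of all probe sets called), 1 of its 4 was called, and the 4 differences ran from -0.76 to 0.10. Pkp1, the plakophilin of suprabasal layers, differed in the other direction by 0.41 (adjusted p = 0.286, limma), with 4 of 6 mutants above the highest control posterior array. Pkp4, also found at adherens junctions, differed by -0.36 (adjusted p = 0.0649, limma).

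Of the 13 classical and type II cadherins, none was called for genotype by limma (1, Cdh1, had an unadjusted p under 0.05), and their median difference was -0.03. Cdh1 ranged from 11.524 to 12.038 (median 11.709) in control posterior palate and from 8.249 to 11.737 (median 11.238) in mutants. Mutant array 1 was lowest, 4 more mutants lay below the lowest control posterior array and 1 lay within the control range. The difference was -1.07 (SE 0.401, adjusted p = 0.0871, limma). Without mutant array 1 it was -0.58 and was called (adjusted p = 0.0372, limma), with a SE of 0.171. Cdh11, a type II cadherin of mesenchyme, differed by -0.03 (-0.02 without mutant array 1), with levels from 12.137 to 13.117 in mutant and from 12.481 to 12.815 in control posterior palate. Cdh3, P-cadherin of basal epithelium, differed by -0.16, and by 0.03 without mutant array 1. Cdh4, R-cadherin, differed by 0.39 (adjusted p = 0.326, limma), and by 0.60 without mutant array 1. Cdh20 differed by 0.06, and by 0.14 without that array.

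Cdh13 rose in the mutants and was the other member whose groups did not overlap. It encodes T-cadherin, which lacks the cytoplasmic tail of other cadherins and is held by a lipid anchor. Its levels were 7.228, 7.401 and 7.523 in control posterior and 7.579, 8.030 and 8.194 in mutant palate (lowest, median, highest). The difference was 0.55 (SE 0.115), 1.47-fold higher (adjusted p = 0.00471, limma), and 0.50 without mutant array 1 (adjusted p = 0.0103, limma). Leaving out each of the 18 arrays in turn kept the call at adjusted p up to 0.0148 (limma); with the 4 sets as a random block it was 0.0564 (limma). Of its 4 probe sets, 2 were called, with differences from 0.02 to 0.60 over the 4. The remaining unclassified cadherins, Cdh16, Cdh17, Cdh23 and Cdh26, were not called in either comparison. For genotype, Cdh26 differed by -0.17, and by 0.11 without mutant array 1.

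**Figure D3:**
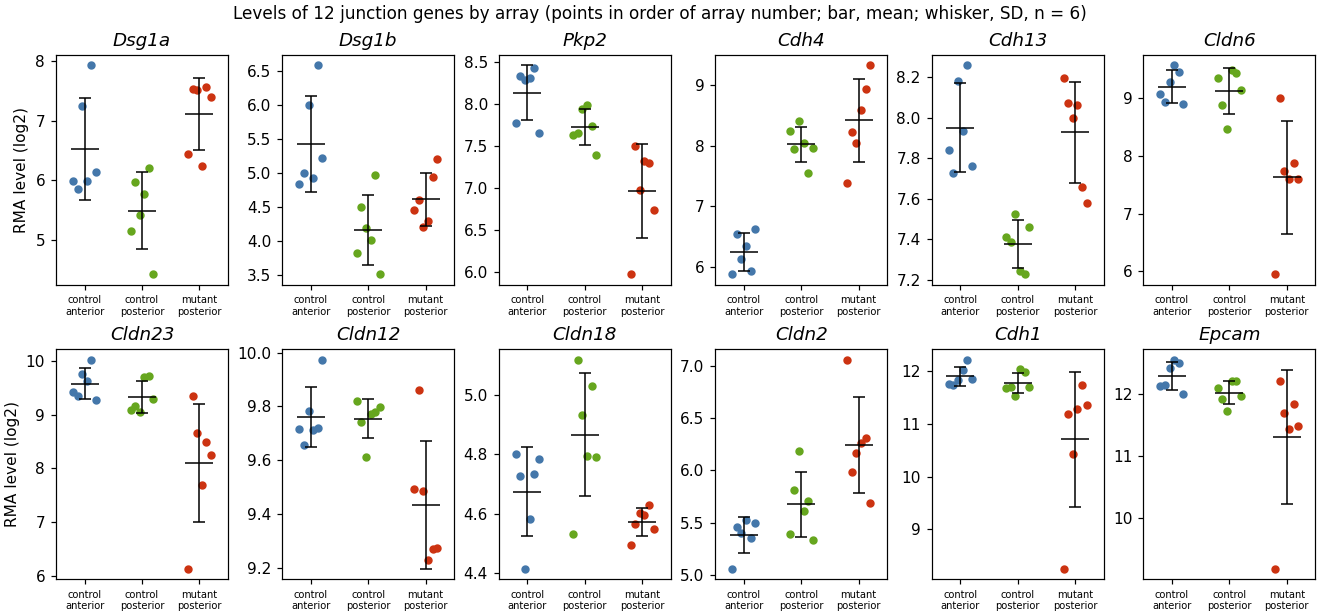
Log2 level in each array for 12 members, with 6 arrays a group, horizontal lines for the mean and bars for the SD. Mutant arrays of Dsg1a and Cdh13 all sit above the control posterior arrays, Cdh4 separates anterior (up to 6.616) from posterior control arrays (from 7.556), and the lowest mutant point of Cldn6, Cldn23, Pkp2, Cdh1 and Epcam is mutant array 1.

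The 24 claudins held 5 of the 8 genotype calls, 1 higher and 4 lower, where 7.73% of all genes were called higher and 5.73% lower. The claudin median was -0.21. Whether calls were more frequent among claudins was not tested. Promoter windows are shown for Cldn6 and Cldn2, claudins that moved in opposite directions, as the 250 bases before the transcript start used in the RefSeq promoter table (GRCm38.p6), 5' to 3' on the plus strand, at chr17:23679115-23679364 and chrX:139800558-139800807. Capitals mark the E-box CACCTG, the motif bound by Snail and Zeb repressors of Cdh1, written here as its reverse complement.

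Cldn6: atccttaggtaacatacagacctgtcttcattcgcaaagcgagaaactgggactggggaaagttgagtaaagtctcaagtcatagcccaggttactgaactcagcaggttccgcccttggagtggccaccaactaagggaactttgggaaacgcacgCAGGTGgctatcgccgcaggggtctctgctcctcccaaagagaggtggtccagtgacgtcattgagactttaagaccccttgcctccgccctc

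Cldn2: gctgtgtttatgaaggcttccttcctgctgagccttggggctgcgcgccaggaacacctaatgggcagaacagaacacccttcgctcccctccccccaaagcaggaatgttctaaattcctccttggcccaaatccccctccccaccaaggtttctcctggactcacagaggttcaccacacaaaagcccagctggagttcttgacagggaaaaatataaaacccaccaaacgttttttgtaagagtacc

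For Cldn6 the gene annotation begins slightly upstream of that transcript start, inside the window. The Cldn6 window held 1 such E-box, beginning at position -93 from the transcript start, and the Cldn2 window held none. Searched on both strands, CACCTG occurred in 17.2% of 32851 promoter windows of this length and in 10 of the 48 windows of the 36 members with an entry, which belong to 9 members (Cdh7, Cldn14, Cldn4, Cldn6, Cldn7, Epcam, F11r, Ocln and Pkp4). The windows of Cldn12 and Cldn18, which fell, held none. The AP-1 motif TGANTCA occurred in 6.75% of windows and in 5 members, Cldn15, Cldn34b2, Cldn34d, Cldn4 and F11r. The grainyhead motif AACCNGTT occurred in 1.79% of windows and in 1 member, Cldn5. Neither the TGANTCA nor the AACCNGTT motif occurred in the windows of Cldn6, Cldn2, Cldn12 or Cldn18. A match is a string of letters and not a site of binding.

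Cldn6, a claudin of embryonic epithelia, had the largest called fall of the set. Its levels were 8.458, 9.245 and 9.491 in control posterior and 5.949, 7.670 and 8.999 in mutant palate (lowest, median, highest). Of the mutants, 5 were below the lowest control posterior array, and mutant array 2, at 8.999, was within the control range. The difference was -1.50 (SE 0.335), 2.83-fold lower (adjusted p = 0.00742, limma). Without mutant array 1 it was -1.16 (adjusted p = 0.00507, limma), and mutant arrays 1 to 3 and 4 to 6 alone gave -1.56 and -1.43. With the basal epithelium marker mean as a covariate the difference was -1.36 (adjusted p = 3.75e-05, limma), and with the 4 sets as a random block its adjusted p was 0.0885 (limma). Among the 6 nasal secretory epithelium markers, 3 also fell, Bpifa1 by 1.69, Reg3g by 1.60 and Muc5b by 0.34 on the log2 scale, and Ltf rose by 1.60, with a list median of -0.58. The list mean was 8.008 to 8.736 in control posterior and 6.272 to 8.658 in mutant arrays. The part of these markers in the falls of Cldn6, Cldn23 and Pkp2 was not tested.

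Cldn23 also fell. Its control posterior levels were 9.049, 9.230 and 9.715 and its mutant levels 6.131, 8.375 and 9.349. Again 5 of 6 mutants were below the lowest control posterior array. The difference was -1.24 (SE 0.362), 2.36-fold lower (adjusted p = 0.0308, limma), and -0.84 without mutant array 1 (adjusted p = 0.0226, limma). The call was lost without control posterior array 4, 5 or 6 or mutant array 4, at adjusted p from 0.0545 to 0.0726 (limma), and with the 4 sets as a random block (adjusted p = 0.202, limma). With the basal epithelium marker mean as a covariate the difference was -1.08 (adjusted p = 9.68e-06, limma).

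The remaining called claudins changed by less. Cldn12 ranged from 9.614 to 9.820 in control posterior and from 9.229 to 9.860 in mutant palate, 5 mutants being below the controls and 1 above them. The difference was -0.32 (SE 0.092, adjusted p = 0.0293, limma), and both of its probe sets were called when every probe set was tested. Mutant arrays 4 to 6 alone gave -0.50 (adjusted p = 0.000433, limma) and mutant arrays 1 to 3 alone gave -0.14 (adjusted p = 0.272, limma); the difference between these sets was not tested. Leaving out 1 array ended the call for 8 of 18 arrays, control posterior 1, 2, 4, 5 and 6 and mutant 4, 5 and 6, at adjusted p from 0.0504 to 0.0612 (limma). Cldn2, a claudin that forms cation pores in leaky epithelia, lay close to the array medians, at 5.330 to 6.186 in control posterior and 5.683 to 7.056 in mutant palate. The difference was 0.57 (SE 0.181, adjusted p = 0.0453, limma), and leaving out 1 array ended that call for 14 of 18 arrays (control anterior 2 to 6, control posterior 1, 2, 4, 5 and 6, mutant 1, 3, 4 and 5), at adjusted p from 0.0519 to 0.105 (limma). Median centring ended it too. When every probe set was tested, the other Cldn2 probe set differed by 0.235 and was not called (adjusted p = 0.125, limma). Cldn18, a claudin of lung and stomach epithelium, lay under every array median, between 4.416 and 5.118 over all 18 arrays, and its difference of -0.29 (SE 0.089, adjusted p = 0.036, limma) may be one of background signal. Its call ended for 8 of 18 left-out arrays (control posterior 2 to 6, mutant 1, 3 and 6), at adjusted p from 0.0503 to 0.0910 (limma). The other Cldn18 probe set differed by -0.08 and was not called (adjusted p = 0.647, limma). With the 4 sets as a random block the adjusted p of Cldn12, Cldn2 and Cldn18 was 0.130, 0.243 and 0.215 (limma).

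Several well-detected claudins of tight, simple epithelia had negative differences that did not pass. Cldn8 differed by -0.999 (adjusted p = 0.134, limma), Cldn7 by -0.86 (adjusted p = 0.221, limma), Cldn4 by -0.61 (adjusted p = 0.28, limma) and Cldn3 by -0.45 (adjusted p = 0.495, limma). Without mutant array 1 the differences were -0.48 for Cldn8, -0.31 for Cldn7, -0.26 for Cldn4 and -0.007 for Cldn3. In each of them mutant array 1 was the lowest of the 18 arrays: for Cldn7 it read 7.881, against 10.528 to 11.733 in the other mutants and 11.227 to 11.719 in control posterior palate. Cldn1, the claudin required for the skin barrier, differed by 0.28 (adjusted p = 0.263, limma), with 4 mutants above the control posterior arrays. Cldn5, the claudin of endothelium, differed by 0.05.

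With the mean of the basal epithelium markers as a covariate, 17 members were called for genotype (28.8%, against 16.4% of all genes), 5 higher and 12 lower. The higher genes were Cldn1, Cldn2, Dsg1a, Cdh13 and Pkp1. The lower genes were Cdh1, Cldn12, Cldn18, Cldn23, Cldn4, Cldn6, Cldn7, Cldn8, Dsg2, Epcam, Pkp2 and Pkp4. All 8 members called without the covariate were among the 17. For each gene the slope was common to all arrays, and mutant array 1, at 9.207, had the lowest covariate value. How far these genotype values and calls rest on that array was not tested. The covariate is itself a measurement of the same arrays, and simple and nasal epithelial markers were low in mutant array 1 as well (7.56 against 9.007 to 10.114, and 6.272 against 7.598 to 8.658 in the other mutants).

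Epcam, Ocln, F11r and Tjp1, which are neither claudins nor cadherins, gave no call for genotype and no unadjusted p under 0.05 (limma). Epcam ranged from 11.724 to 12.210 (median 12.028) in control posterior and from 9.191 to 12.209 (median 11.582) in mutant palate. Of the mutants, 4 lay below the controls. The difference was -0.71 (adjusted p = 0.181, limma) and -0.29 without mutant array 1 (adjusted p = 0.192, limma). Ocln differed by -0.47, F11r, which encodes the junctional adhesion molecule JAM-A, by -0.29, and Tjp1 by 0.15. Leaving out mutant array 1, Ocln and F11r differed by -0.05 each and Tjp1 by 0.11.

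Posterior and anterior control palate were compared next. Cdh4 was higher posteriorly, and Dsg1b and Cdh13 were lower. These 3 of 59 members were 5.08%, beside 3.82% of all genes called in this comparison (1.7% higher and 2.12% lower). The median difference was -0.04 for members and -0.02 for all genes. Groups did not overlap for 7 members, Cdh20, Cdh3, Cdh4, Cldn22, Dsg2, Dsp and Cdh13, where 6.32% of all genes did not overlap.

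Cdh4 had the largest region difference of the set. R-cadherin is a classical cadherin of neural tissue, kidney and developing muscle. Its levels were 5.876, 6.235 and 6.616 in anterior and 7.556, 7.999 and 8.401 in posterior control palate (lowest, median, highest), so that every posterior array exceeded every anterior array. The difference was 1.79 (SE 0.250), 3.45-fold higher (adjusted p = 0.00033, limma), and the call was kept without each of the 18 arrays in turn, at adjusted p up to 0.00134 (limma). Of 3 probe sets, 2 were called (1.86% of all probe sets were), at 1.79 and 1.99, and the other differed by -0.15. Mutant posterior arrays, at 7.386 to 9.325, also lay above all anterior control arrays. All 8 skeletal muscle markers were higher posteriorly, with a median difference of 3.61 and a mean level of 5.339 to 7.353 in anterior against 8.871 to 10.039 in posterior control palate. Their part in the Cdh4 difference was not tested.

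Cdh13 was lower posteriorly, with levels from 7.728 to 8.257 in anterior and from 7.228 to 7.523 in posterior control palate. The difference was -0.57 (SE 0.115), 1.49-fold lower (adjusted p = 0.0076, limma). Mutant posterior arrays, at 7.579 to 8.194, overlapped the anterior control range. The region and genotype calls of Cdh13 rest on the same 6 control posterior arrays. Dsg1b was 4.844, 5.107 and 6.576 in anterior and 3.518, 4.110 and 4.970 in posterior control palate, mostly under the array medians. The difference was -1.25 (SE 0.293), 2.39-fold lower (adjusted p = 0.0213, limma). That call ended without control anterior array 3 or control posterior array 4 or 6, at adjusted p from 0.0505 to 0.0634 (limma), and with the basal epithelium covariate (adjusted p = 0.0753, limma). Among the 10 stratified epithelium markers, Sprr1a also fell posteriorly, by 2.10 on the log2 scale (adjusted p = 0.0256, limma), Krt6b differed by -1.70 (adjusted p = 0.181, limma), and the list median was -0.57. The list mean was 7.863 to 9.259 in anterior and 7.409 to 8.175 in posterior control palate, and the part of these markers in the Dsg1b difference was not tested. Dsg1a, the near-identical copy, differed by -1.04 (adjusted p = 0.132, limma). Within control arrays 1 to 3 and within control arrays 4 to 6, the region differences were 2.01 and 1.56 for Cdh4, -0.47 and -0.67 for Cdh13, and -1.11 and -1.40 for Dsg1b. None of these passed with 3 arrays a group (smallest adjusted p = 0.0605 for Cdh4, limma), and 6 members had an unadjusted p under 0.05 in each set.

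Most desmosomal genes had negative region differences, from -0.22 for Pkp4 to -1.25 for Dsg1b, and Dsg1b was the only one called; Dsc1 differed by 0.02. Over the 6 desmosomal cadherins 5 differences were negative, with a median of -0.74. Those of Dsp, Jup and Perp and of all 4 plakophilins were negative as well, with medians of -0.55 and -0.45. Dsp lay between 12.438 and 13.110 in anterior and between 11.959 and 12.373 in posterior control palate. All anterior arrays were above all posterior arrays, and the difference of -0.55 had an adjusted p of 0.236 (limma). Dsg2 lay between 10.712 and 11.386 in anterior and between 9.988 and 10.659 in posterior control palate, again without overlap, and differed by -0.66 (adjusted p = 0.239, limma). Dsc3 differed by -0.81 (adjusted p = 0.0954, limma), Pkp1 by -0.73 (adjusted p = 0.101, limma) and Jup by -0.55 (adjusted p = 0.12, limma).

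The count of region calls changed with the arrays in the fit. With the 12 control arrays alone, 16 members were called (27.1%, against 11.8% of all genes): Cdh20, Cdh4, Cdh9, Cldn16, Cldn19 and Cldn22 higher, and Cdh3, Dsc2, Dsc3, Dsg1b, Dsg2, Dsp, Jup, Cdh13, Pkp1 and Pkp3 lower. Without mutant array 1 in the fit of 3 groups, 9 were called (15.3%, against 6.67%), Cdh4 higher and Cdh3, Dsc2, Dsc3, Dsg1b, Dsg2, Dsp, Cdh13 and Pkp1 lower. Control arrays of the same number from both regions deviated together, and with the replicate number as a block in the 12 control arrays 22 members were called (37.3%, against 17.3%), 5 higher and 17 lower. This last fit was chosen after seeing the data.

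Epithelial marker levels are given beside these differences. The basal epithelium marker mean was 10.859 to 11.684 in anterior and 10.431 to 11.048 in posterior control palate, with a list median of -0.60, and 1 of its 8 genes, Col17a1, was called lower. The 12 simple and general epithelium markers gave no region call and no unadjusted p under 0.05 (limma), with a median of -0.26. The part of these markers in the region differences was not tested. With that mean as a covariate, 10 members were called for region (16.9%, against 4.45% of all genes). Cdh4, Cldn10, Cldn23, Cldn3, Cldn4, Cldn7, Cldn8, Perp and Ocln were higher posteriorly in that fit and Cdh13 was lower. No desmosomal cadherin or plakophilin was among the 10. The sign of the difference turned from negative to positive under the covariate for Cdh1 (-0.13 to 0.57) and Epcam (-0.27 to 0.43). It turned likewise for Ocln (-0.19 to 0.53) and Dsc2 (-0.67 to 0.02). For each gene the covariate had a common slope over all arrays, mutants included. Mutant array 1 lay below every control array on the covariate, at 9.207, and read 8.249 for Cdh1 and 9.191 for Epcam. How far the slopes, and so these region values and calls, rest on that array was not tested.

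**Figure D4:**
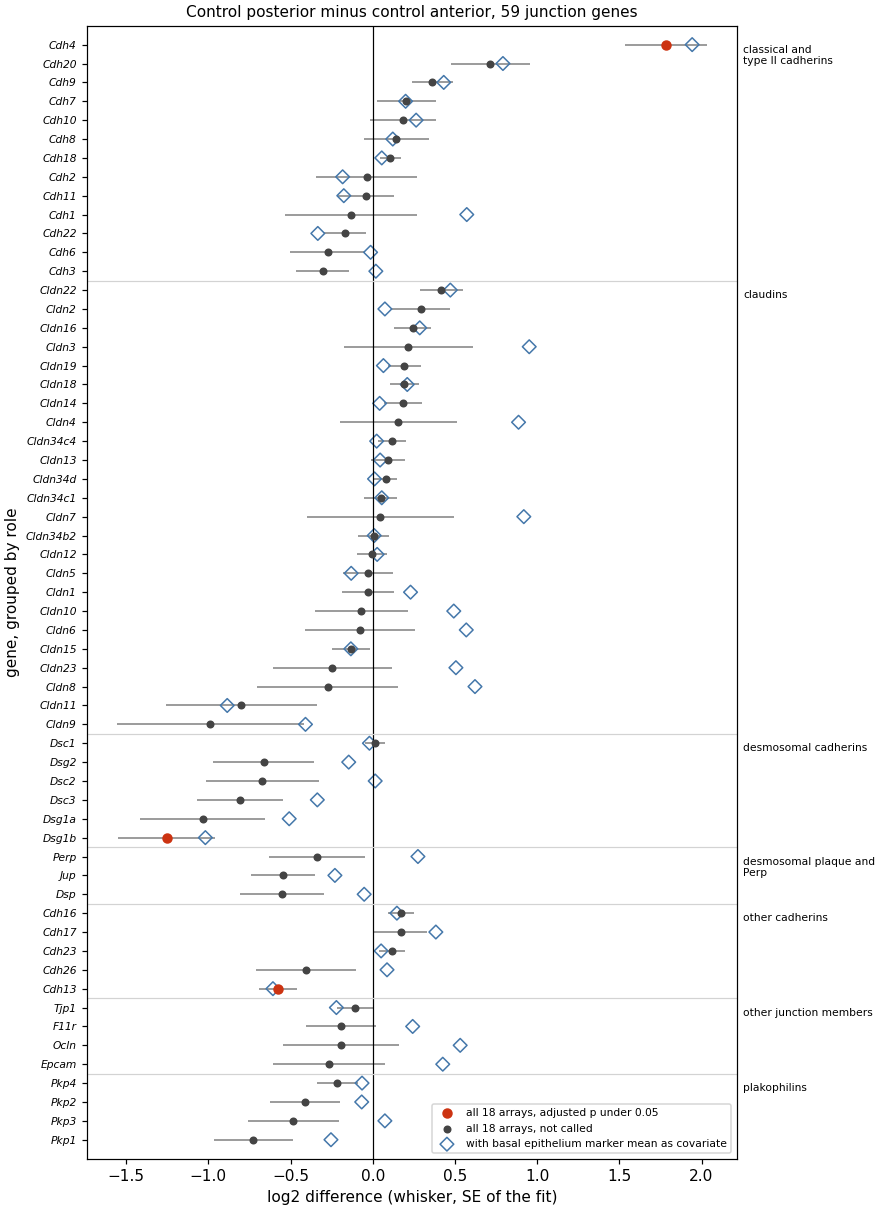
Log2 difference of control posterior minus control anterior palate for each of the 59 members, grouped by role, with bars of 1 standard error from the limma fit (n = 6 arrays a group); red marks the 3 called members and diamonds give the value with the basal epithelium marker mean as a covariate. Cdh4 stands at 1.79, and diamonds of epithelial junction genes such as Cdh1 and Epcam lie to the right of their points. The covariate slope was fitted over all arrays, mutants included.

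Claudins gave no region call (limma), with a median of 0.05 over the 24 genes, of which 3 had an unadjusted p under 0.05. With the replicate block in the 12 control arrays, Cldn14, Cldn16 and Cldn22 were called higher posteriorly and Cldn8 and Cldn11 lower. Cldn22 did not overlap between regions, at 5.399 to 6.116 in anterior and 6.176 to 6.561 in posterior control palate, and differed by 0.42 (adjusted p = 0.0872, limma). Cldn6 differed by -0.08, Cldn7 by 0.05 and Cldn12 by -0.01, a value whose sign turned under several alternatives. Cdh20, a type II cadherin, read 3.641 to 4.309 in anterior and 4.561 to 5.138 in posterior control palate, under every array median, and differed by 0.72 (adjusted p = 0.104, limma).

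The 30 members outside the rule for named genes had genotype differences from -0.999 to 0.28, with a smallest adjusted p of 0.134 (limma), and region differences from -0.99 to 0.36, with a smallest adjusted p of 0.0954 (limma). Those of them that are named above with values (Cldn1, Cldn3, Cldn5, Cldn8, Dsc1 and Dsc3) were chosen after their values were seen.

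Partner genes of the junctions were read from 4 lists. Their counts of calls are to be read against the shares of all genes, 7.73% higher and 5.73% lower for genotype and 1.7% higher and 2.12% lower for region; lists this short allow no reading of a few calls. Of 12 adherens junction partners, 3 rose for genotype: Ctnna3, an alpha catenin, by 0.56 (adjusted p = 0.0132, limma), Ctnnd1, p120 catenin, by 0.22 (adjusted p = 0.0307, limma) and Vcl, vinculin, by 0.28 (adjusted p = 0.0369, limma). Ctnna3 averaged 4.221 in control posterior and 4.784 in mutant palate, under every array median, where a value may be background. The list median was 0.09. For region, Nectin3 was higher by 0.44 (adjusted p = 0.0348, limma), while Ctnnd1 differed by -0.26 (adjusted p = 0.0314, limma) and Afdn, afadin, by -0.35 (adjusted p = 0.0222, limma). Of 18 tight junction scaffolds and partners measured, Mpp5 (Pals1), a polarity scaffold, rose by 0.87 (adjusted p = 0.02, limma) and Jam2, a junctional adhesion molecule, by 0.77 (adjusted p = 0.0236, limma) for genotype, with a list median of -0.14. Jam2 was also higher posteriorly by 1.34 (adjusted p = 0.00107, limma), and Pard3, a polarity protein, was lower, at -0.33 (adjusted p = 0.00708, limma).

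Of 7 plakins and desmosome regulators, 3 rose for genotype and the list median was 0.44. Plec, the cytolinker plectin, rose by 0.62 (adjusted p = 0.00105, limma), Prkca, a kinase that loosens desmosomes, by 0.75 (adjusted p = 0.00243, limma) and Cdsn, corneodesmosin of cornified layers, by 0.47 (adjusted p = 0.00862, limma). Cdsn averaged 5.4 in control posterior and 5.872 in mutant palate, near the array medians. None of the list was called for region at an adjusted p under 0.05 (limma), while 4 had an unadjusted p under 0.05, with a median of -0.38. Plec was the member with the smallest region p, differing by -0.32 (adjusted p = 0.0987, limma). Of 10 connexins measured, Gja4, a connexin of vessels, rose by 0.66 (adjusted p = 0.00461, limma) and Gjb5, a connexin of stratified epithelium, by 0.57 (adjusted p = 0.0105, limma) for genotype. The connexin median was 0.25 for genotype and 0.13 for region, with no region call (limma); Gjb6 alone had an unadjusted p under 0.05, with a region difference of 0.93 (adjusted p = 0.203, limma). Gjb5 averaged 4.465 in control posterior and 5.034 in mutant palate, under every array median, where a value may be background. No partner gene was called lower for genotype.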

How the data were processed

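RNA of 18 palate samples was hybridised to 1-colour Affymetrix arrays. The deposited values are log2 values per probe set made by the authors with RMA (version not given in the sources used here), per the submitters' processing notes; quantile normalization would remove a change shared by most genes. No detection calls were used here. Of 45101 probe sets, 34945 carried 1 gene symbol in the platform annotation, 932 several and 9160 none, and 64 were array controls, which were not tested. The brightest of a gene's probe sets stood for it (105 probe sets for the 59 members; 28 members had several).

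Groups came from the sample titles. limma 3.58.1 in R 4.3.3 (lmFit, eBayes, 2-sided, 15 residual degrees of freedom, no covariate) was fitted once over the 3 groups, and tested on simulated data. By rule, 29 members were named: those called or with groups that do not overlap in either comparison, 8 fixed genes (Cdh1, Epcam, Dsp, Jup, Perp, Ocln, F11r, Tjp1), and in each role class the 2 brightest and the 1 with the largest genotype difference; partner lists gave up to 3 called genes, or the smallest p. Members, lists and alternatives were chosen with earlier results of these data known. Equal replicate numbers pair anterior with posterior control arrays only by their correlated deviations (0.111 to 0.43, above 0.1 in all 6 pairs). In 3 of the 6 pairs the own number gave the highest correlation. Mutant and control posterior arrays did not pair (-0.222 to 0.157). Promoter windows were from RefSeq (GRCm38.p6). The number of arrays limits the precision.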

Additional observations from a re-analysis of the deposited data

Results flagged for a closer look

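Of 87 sets of 6 arrays examined (29 members in 3 groups), 10 held an array far from the other 5 by Dixon's criterion, which chance meets in about 1 of 20 sets. In 7 of them the low array was mutant array 1: Dsp at 10.55, Epcam at 9.19, Dsc2 at 8.5, F11r at 8.19, Cldn7 at 7.88, Cdh3 at 6.59 and Cdh26 at 4.58. The other 3 were low control anterior arrays: Cldn22 at 5.4 and Cdh20 at 3.64 in array 2, and Cldn2 at 5.06 in array 1. For Cldn22 and Cdh20 that array lies on the side away from the posterior control arrays, and for Cldn2 all of the anterior control arrays lie under the array medians.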

How the results depend on the processing

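Of the results for the 8 members called for genotype, 184 of 271 kept direction and side of the threshold under an alternative, 86 kept direction only and 1 changed sign; for the 3 called for region the figures were 86, 12 and 2 of 100. For the 21 named members not called for genotype, 26 of 707 passed and 40 changed sign, and for the 26 not called for region 38 of 849 passed and 25 changed sign. A stricter threshold or fewer arrays lowers counts by construction; the cause of the other shifts was not tested.

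Members called for genotype (8) numbered 3 at an adjusted p under 0.01, 3 with the 12 compared arrays alone, 0 with the 4 sets as a random block (10 at an unadjusted p under 0.05, limma), 0 with control arrays 1 to 3 only (7 unadjusted), 1 with control arrays 4 to 6 only, 12 with mutant arrays 1 to 3 only and 11 with mutant arrays 4 to 6 only, 17 with the basal epithelium covariate, and 3 to 9 without 1 array, the fewest without control posterior array 4 or 5. All genes called for genotype (2449) numbered 905, 1572, 588, 135, 1008, 4986, 3318 and 2984 under the first 8 of these, in the same order. They numbered 1512 to 2735 without 1 array, the fewest without control posterior array 5. With mutant arrays 1 to 3 only, 20.3% of members and 27.4% of all genes were called. With mutant arrays 4 to 6 only the shares were 18.6% and 18.2%. Members called for region (3) numbered 16 with the 12 arrays alone, 17 with array weights, 10 with the covariate, 0 with control arrays 1 to 3 only and 0 with 4 to 6 only (6 unadjusted in each, limma), 22 with the replicate block in control arrays alone and 2 to 9 without 1 array, the most without mutant array 1. All genes called for region (695) numbered 251 at 0.01, 2151 with the 12 arrays alone, 1322 with the 4 sets as a random block, 3356 with array weights, 82 and 16 with control arrays 1 to 3 and 4 to 6 only, 3156 with the replicate block in control arrays alone and 389 to 1213 without 1 array, the fewest without control posterior array 6 and the most without mutant array 1. The covariate fit called 809 of all genes for region. With the replicate block over all 18 arrays, 7 members were called for genotype (11.9%, beside 13.7% of all genes). For region it called 3 (5.08%, beside 3.72%). For genotype the numbers pair nothing.

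Genotype differences changed sign for 12 named members, among them Pkp2, which was called, and Dsg2 and Cdh4. Under array weights they were 0.052 for Cdh11, 0.135 for Cdh26, 0.106 for Dsc2, 0.076 for Dsp, -0.054 for Jup and 0.105 for Perp. With mutant arrays 4 to 6 only they were 0.191 for Cdh11, 0.099 for Cdh26, 0.221 for Dsc2, 0.209 for Dsp, -0.16 for Jup and 0.049 for Perp, and with mutant arrays 1 to 3 only -0.367 for Cdh20, -0.142 for Cdh4 and -0.003 for Tjp1. With control arrays 4 to 6 only they were 0.07 for Cdh11 and -0.045 for Jup, and with control arrays 1 to 3 only -0.046 for Cdh20, 0.002 for Dsc2 and 0.093 for Perp. Median centring gave -0.0 for Cdh20 and -0.001 for Jup, the covariate 0.107 for Perp, and the mean of probe sets 0.189 for Dsc2. Another probe set gave 0.573 for Dsc2, 0.087 for Dsg2, 0.429 for Dsp and 0.095 for Pkp2. Leaving out 1 array gave ranges of -0.141 to 0.055 for Cdh11, -0.211 to 0.153 for Cdh20, -0.287 to 0.112 for Cdh26, -0.236 to 0.027 for Cdh3, -0.329 to 0.204 for Dsc2, -0.246 to 0.169 for Dsp, -0.076 to 0.157 for Jup and -0.197 to 0.288 for Perp.

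Region differences that changed sign were, under the covariate, 0.572 for Cdh1, 0.087 for Cdh26, 0.019 for Cdh3, 0.027 for Cldn12, 0.506 for Cldn23, 0.569 for Cldn6, 0.015 for Dsc2, 0.426 for Epcam, 0.243 for F11r, 0.532 for Ocln and 0.275 for Perp. Another probe set gave 0.077 for Cdh13, -0.147 for Cdh4, 0.2 for Epcam, 0.123 for F11r and 0.061 for Pkp2. Control arrays 4 to 6 only gave 0.096 for Cdh11 and 0.048 for Cldn6, control arrays 1 to 3 only 0.008 for Cldn12, and array weights 0.002 for Cldn12. Leaving out 1 array gave -0.167 to 0.054 for Cdh11, -0.026 to 0.037 for Cldn12, -0.149 to 0.057 for Cldn6 and -0.051 to 0.109 for Cldn7. Signal near or under the array medians limits Cldn2, Cldn18, Cdh20 and Dsg1b, and the partner genes Ctnna3, Gjb5 and Cdsn.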

Other observations

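Cdh2, N-cadherin, is on the list of members but outside those named by rule, and was chosen after its values were seen. It ranged from 8.993 to 9.641 in mutant arrays 1 to 3 and from 10.41 to 11.134 in mutant arrays 4 to 6, with control posterior arrays between 10.211 and 10.64. Its genotype difference over all 6 mutants was -0.33 (adjusted p = 0.527, limma). These values are from its brightest probe set. When every probe set was tested, its other one, averaging 9.259, differed in the other direction by 0.55 (adjusted p = 0.0893, limma). The same sets of mutant arrays also parted Cdh1 (8.249 to 11.19 against 11.287 to 11.737) and Cdh11 (12.137 to 12.515 against 12.63 to 13.117). Dsg2 (7.794 to 9.762 against 9.939 to 10.247) and Cdh4 (7.386 to 8.219 against 8.587 to 9.325) were parted likewise. Cldn12 (9.485 to 9.86 against 9.229 to 9.273) was parted in the other direction. Cdh20, Cldn5, Cdh8 and Cdh17 were parted as Cdh1 was, and Cdh16 and Cldn13 as Cldn12 was. The share of all genes parted in this way was not counted, so these partings are not a result about the members. The Cdh4 genotype difference was -0.142 for the first set (adjusted p = 0.66, limma) and 0.926 for the second (adjusted p = 0.00613, limma). The difference between these sets was not tested.

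Cldn11 and Cldn9, also chosen after their values were seen, varied widely within controls. Cldn11 spanned 6.57 to 9.189 and Cldn9 7.461 to 9.871 in anterior control arrays, and their region differences of -0.80 and -0.99 were not called (adjusted p = 0.348 and 0.35, limma). With the replicate number as a block in the 12 control arrays, Cldn11 was called lower (adjusted p = 0.0417, limma).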
